A study of Mus musculus with 12 samples.

Results

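The claudins and the other genes of the tight junction were examined in whole fetal mouse testes collected at E14.5. Members were all lines of the deposited count table whose symbol is a numbered claudin (Cldn) or another tight junction gene, among them Tjp1, Tjp3, Ocln, F11r, Jam2, Jam3, Cgn, Cgnl1, Marveld1, Marveld2 and Marveld3. This gave 35 of 24470 genes, 23 of them claudins, and 21 members (10 claudins) were kept by a filter on low counts. Control pools had the genotype Nr2f2 f/f, which is a floxed Nr2f2 gene without Cre. Conditional knockout (cKO) pools had the genotype Wt1 CreER x Nr2f2 f/f, in which a tamoxifen-inducible Cre is expressed from Wt1, a gene active in Sertoli cells, the coelomic epithelium and interstitial progenitors. Pregnant females were given tamoxifen at E11.5 and E12.5. There were 6 control and 6 cKO libraries, each from RNA of 3 pooled testes. Only cKO pools carried Cre, so its presence and the loss of Nr2f2 cannot be told apart, and the study infers from its stainings that Cre acted in part of the cells. The comparison addressed what loss of Nr2f2, which encodes a nuclear receptor of interstitial cells, changes in the fetal testis.

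Total counts ran from 7044531 to 59404778 per library. Expression is given as CPM, the read count relative to the total of the library after TMM scaling in edgeR. The quasi-likelihood test of edgeR compared the groups over the 15572 genes kept, and a gene with an adjusted p under 0.05 was called. The log2 ratio is the fold change of cKO to control on the log2 scale, negative where cKO testes had less, and SE is its standard error. Nr2f2 had between 163 and 186 CPM in control pools and between 50.2 and 119 CPM in cKO pools. Control replicate 1 and cKO replicates 3, 5 and 6 had between 304 and 891 CPM of Xist, the RNA of the inactive X chromosome, against 5.15 to 7.68 CPM in the 8 other libraries. These 4 libraries also had 141 to 315 CPM of a summed list of 6 ovarian genes, against 66.7 to 92.8 CPM in the others, which goes against their label of testis alone. Testis markers were present too, with summed levels of 7 Sertoli cell genes from 730.5 to 968 CPM in these 4 libraries and from 827 to 1269 CPM in the others. Results are therefore also given for the 8 libraries with Xist under 100 CPM.

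Tight junctions seal the space between neighbouring epithelial or endothelial cells. Claudins are small membrane proteins that form the sealing strands, and some of them, such as Cldn2, form pores for ions and water instead. Occludin and the MARVELD proteins share the strands, junctional adhesion molecules (F11r, Jam2, Jam3) bind their like across the gap, and the zonula occludens proteins (such as Tjp1 and Tjp3) with cingulin and its paralog tie the strands to actin. In the testis, Sertoli cells later build the blood-testis barrier from such junctions, with Cldn11 as a main claudin.

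Of the 21 members kept, 5 were called. Cldn1 was lower in cKO testes, and F11r, Cldn2, Tjp3 and Cldn6 were higher. Of all genes tested, 8.13% passed the threshold, 4.85% as lower and 3.28% as higher. Both counts depend on the libraries used. Leaving out 1 library at a time gave 3 to 6 members called. Without control replicate 1, 6 of 21 members and 3106 of 15579 genes were called. Groups did not overlap in 3 members, Cldn1, F11r and Cldn6, and over all genes this held for 5.52% (3.13% lower and 2.39% higher). Cldn6 passed the filter on low counts only through the cKO pools, so its place in both counts is not independent of the filter. The median log2 ratio of the 21 members was -0.04, against 0.00 for all genes tested, with 10 members positive and 11 negative. In the 8 libraries with Xist under 100 CPM, Cldn1 and F11r were called, where 7.08% of genes passed. In whole testes, fewer cells of a type and less RNA per cell cannot be told apart.

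**Figure D1:**
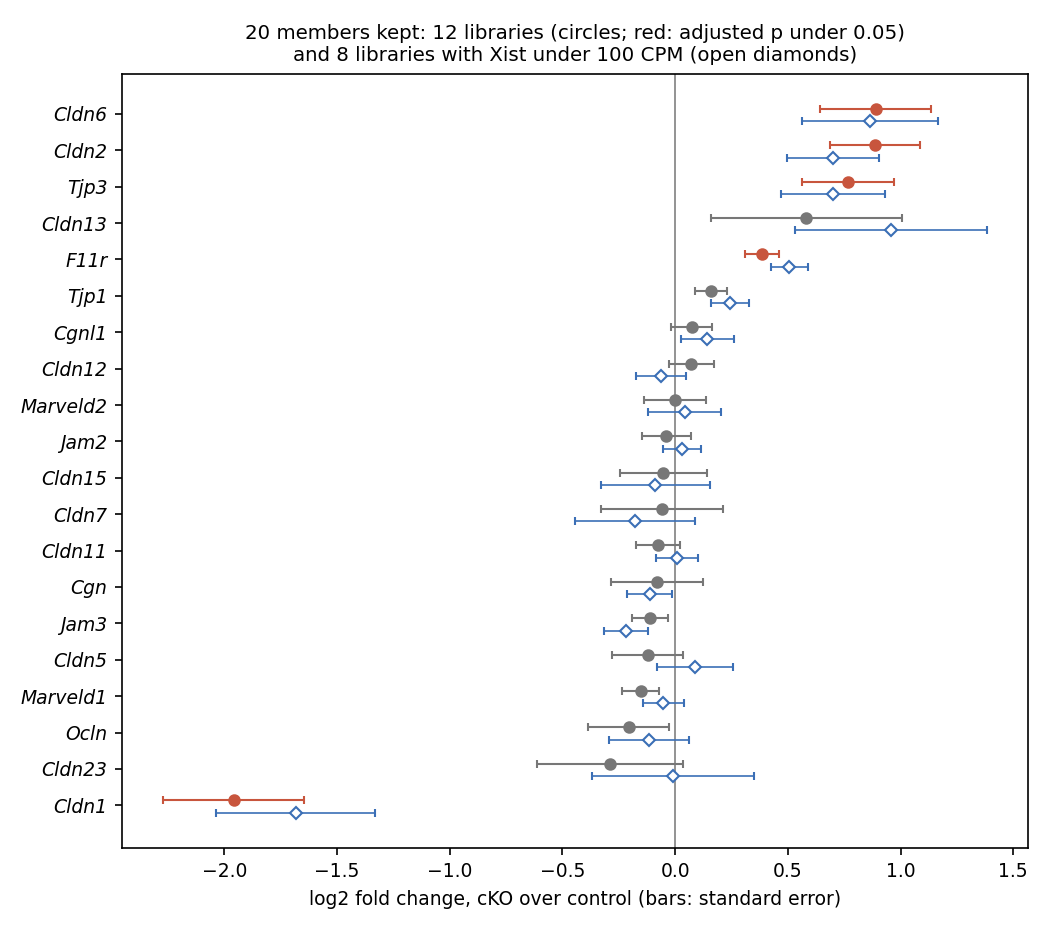
Log2 fold changes (cKO over control, horizontal axis, with standard errors) of 20 of the members kept, by name on the vertical axis. Circles are the fit of 12 libraries, red where the adjusted p was under 0.05, and open diamonds the fit of 8 libraries; Cldn1 lies at -1.96 and the 4 members called higher lie between 0.38 and 0.89.

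The starts of the 5 members called are shown because they moved in opposite directions. Each sequence is the 250 bases before the RefSeq transcription start (GRCm38.p6, the assembly of mm10), read 5′ to 3′ on the strand of the gene. Capitals mark matches on either strand to AGGTCA, the half-site that nuclear receptors of the NR2F family bind, to CAGGTG, an E-box that Snail family repressors bind and that shares the letters AGGT with the half-site, or to TATAAA, the TATA box.
Cldn1 (chr16:26371840-26372089, minus strand): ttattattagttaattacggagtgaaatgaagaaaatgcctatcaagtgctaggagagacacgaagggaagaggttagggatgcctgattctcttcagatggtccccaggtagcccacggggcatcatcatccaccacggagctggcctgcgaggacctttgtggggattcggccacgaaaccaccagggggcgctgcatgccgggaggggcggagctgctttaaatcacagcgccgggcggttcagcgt
Cldn2 (chrX:139800558-139800807, plus strand): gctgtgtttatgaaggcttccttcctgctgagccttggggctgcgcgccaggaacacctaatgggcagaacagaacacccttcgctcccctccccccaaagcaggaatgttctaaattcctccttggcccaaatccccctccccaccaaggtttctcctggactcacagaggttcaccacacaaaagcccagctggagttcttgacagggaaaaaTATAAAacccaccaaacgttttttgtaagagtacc
Cldn6 (chr17:23679115-23679364, plus strand): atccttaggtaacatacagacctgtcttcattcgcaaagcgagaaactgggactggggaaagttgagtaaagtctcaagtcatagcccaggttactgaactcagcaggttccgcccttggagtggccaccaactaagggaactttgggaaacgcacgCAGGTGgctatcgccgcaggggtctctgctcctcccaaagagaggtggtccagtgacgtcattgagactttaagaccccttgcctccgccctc
F11r (chr1:171437311-171437560, plus strand): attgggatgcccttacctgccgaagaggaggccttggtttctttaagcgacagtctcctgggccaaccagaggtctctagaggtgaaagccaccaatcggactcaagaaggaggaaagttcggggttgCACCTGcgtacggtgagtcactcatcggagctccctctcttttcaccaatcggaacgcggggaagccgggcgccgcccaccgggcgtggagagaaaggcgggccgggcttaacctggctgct
Tjp3 (chr10:81291582-81291831, minus strand): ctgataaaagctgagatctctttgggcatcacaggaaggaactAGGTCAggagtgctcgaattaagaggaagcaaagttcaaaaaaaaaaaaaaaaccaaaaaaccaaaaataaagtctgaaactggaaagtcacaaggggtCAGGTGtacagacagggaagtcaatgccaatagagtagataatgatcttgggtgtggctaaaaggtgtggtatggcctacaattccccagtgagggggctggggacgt
The letters of none of the 3 motifs were found in the Cldn1 window. The Cldn2 window had TATAAA starting 35 bases before the start, and the Tjp3 window had AGGTCA starting 207 bases and CAGGTG starting 108 bases before it. CAGGTG also occurred at 93 bases in Cldn6 and, as CACCTG on the printed strand, at 122 bases in F11r. A second RefSeq start of Tjp3 was not printed. Windows were found for 27 of 35 members and for 16 of the 21 kept, which had 22 windows. AGGTCA was in 4 of these 22 windows (18.2%), CAGGTG in 6 (27.3%) and TATAAA in 3 (13.6%), against 14.0%, 17.2% and 12.4% of 32817 windows of all genes. A match is a run of letters and not a measured binding site.

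Cldn1, which encodes a sealing claudin best known from the epidermis, had the largest change of the 21 members. It lies on chromosome 16 of mm10 from 26356645 to 26371839 on the minus strand (Entrez Gene 12737). Control replicates 1 to 6 had 17.0, 19.4, 18.3, 21.5, 37.6 and 33.1 CPM, and cKO replicates 1 to 6 had 5.92, 13.8, 5.23, 5.04, 2.99 and 4.42 CPM. No cKO pool reached the lowest control. Control replicates 5 and 6 were well above the other controls, and cKO replicate 2 was well above the other cKO pools. Mean expression fell from 24.5 ± 8.69 CPM to 6.23 ± 3.84 CPM (SD, n = 6 pools each). The log2 ratio was -1.96 (SE 0.31, edgeR adjusted p = 0.00165), a 3.89-fold lower level. Each of the 12 fits without 1 library called it, with log2 ratios from -2.32 to -1.79, and the log2 ratio was -1.68 in the 8 libraries with low Xist (edgeR adjusted p = 0.0171). Without control replicates 5 and 6 it was -1.61 (edgeR adjusted p = 0.012).

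**Figure D2:**
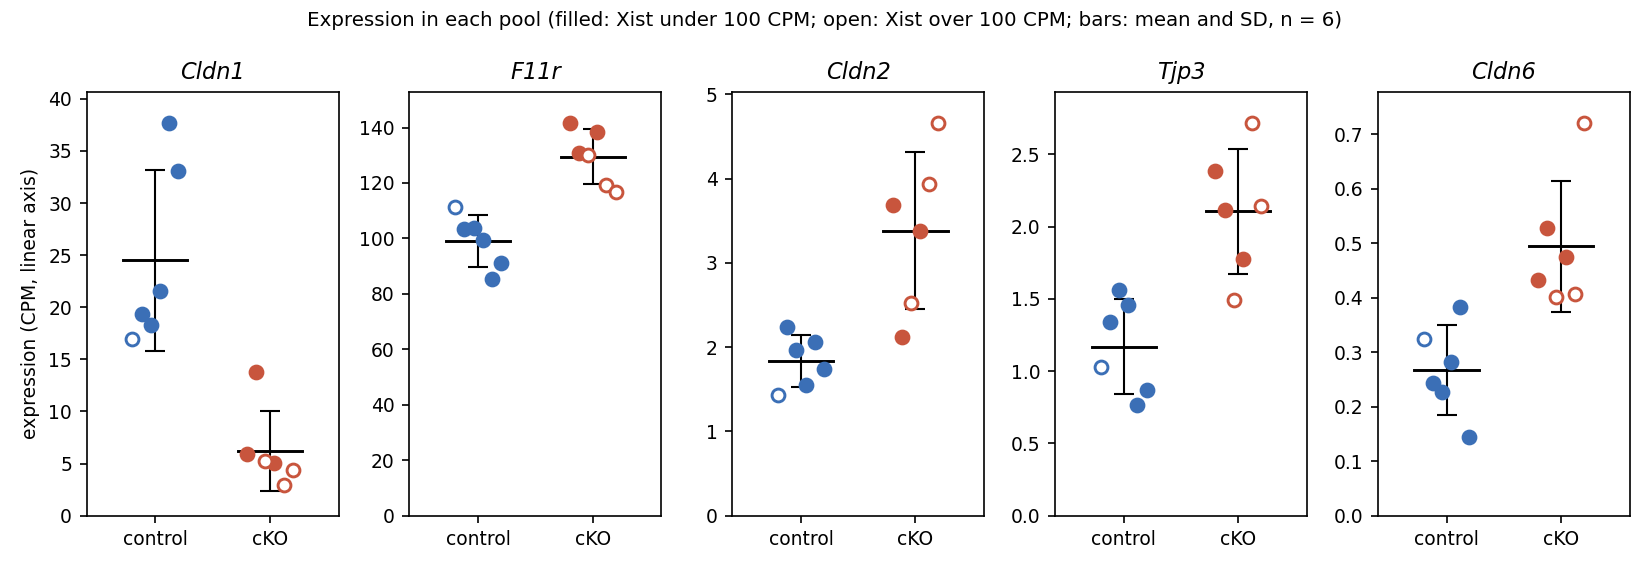
Expression in CPM (linear vertical axis from 0) of the 5 members called, with 1 point per pool, control in blue and cKO in red, open points for libraries with Xist over 100 CPM, and black bars for the mean and SD of 6 pools. Cldn1 falls from a mean of 24.5 to 6.23 CPM without overlap, and Cldn2 and Tjp3 each have 1 cKO pool within the control range.

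The cKO pools differed in how much Nr2f2 RNA was left, and Cldn1 was in nearly the same order. In cKO replicates 1 to 6, Nr2f2 had 78.9, 119, 75.4, 78.8, 50.2 and 53.6 CPM. Replicate 2 had the most of both genes and replicate 5 the least of both. Over the 6 cKO pools, Pearson's r of the log2 values was 0.94 (exact permutation p = 0.00833, adjusted p = 0.0417 over the 5 members called) and Spearman's rho was 0.94 (exact permutation p = 0.0167, adjusted p = 0.0833). Without replicates 2 and 5, the pools farthest from the median of Nr2f2, r was 0.84 over 4 pools. The relation was computed for the 5 members called only, so the share of all genes with such an r is not known. In these pools, less Nr2f2 RNA per cell and fewer cells that express it cannot be told apart. This relation was looked for after the values had been seen. It was not seen among the control pools, where replicate 5 had the most Cldn1 (37.6 CPM) with the least Nr2f2 (163 CPM) and replicate 3, with the most Nr2f2 (186 CPM), had 18.3 CPM of Cldn1. The 3 cKO pools with high Xist were also the 3 lowest in Nr2f2, so the relation was recomputed within the 3 high-Xist and the 3 low-Xist cKO pools. On each side the order of Cldn1 was that of Nr2f2. On the low-Xist side this order rests on nearly equal values, as cKO replicates 1 and 4 had 78.94 and 78.76 CPM of Nr2f2. With values taken as deviations from the mean of their side, r was 0.90 for Cldn1 (exact permutation p = 0.0278 within sides, adjusted p = 0.139 over the 5 members). This p is the smallest that 36 permutations can give, so a single member alone could not pass the threshold after adjustment. For Cldn2, r was -0.85 (exact permutation p = 0.0389, adjusted p = 0.0972) and rho -0.71 (exact permutation p = 0.136, adjusted p = 0.227), and r was -0.69 without the same 2 pools and -0.95 within sides (exact permutation p = 0.111, adjusted p = 0.278). Neither F11r (r = 0.67), Tjp3 (r = -0.34) nor Cldn6 (r = -0.09) had an exact permutation p under 0.05. Without the same 2 pools r was 0.95 for F11r, -0.27 for Tjp3 and -0.94 for Cldn6, and within sides r was 0.13, -0.55 and -0.06 (exact permutation p = 0.75, 0.333 and 0.917), so these values rest on few pools.

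**Figure D3:**
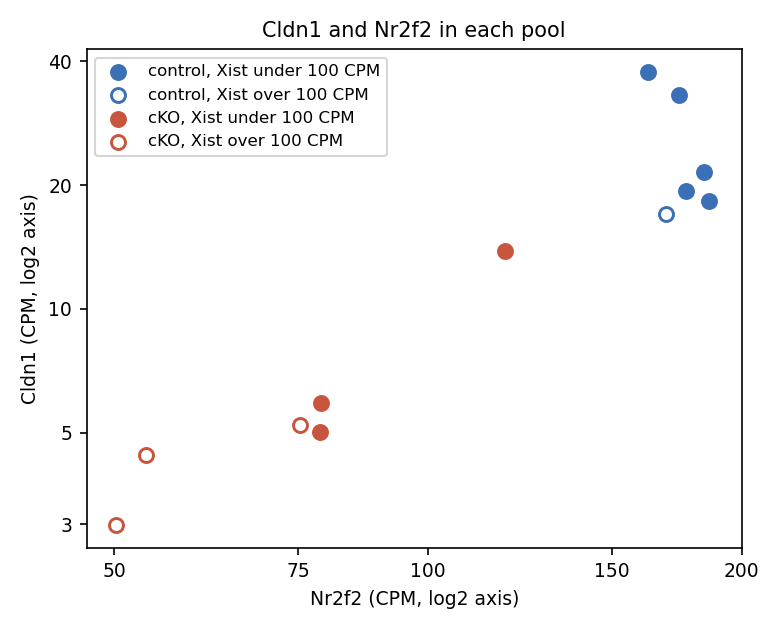
Cldn1 against Nr2f2 in each pool (CPM, log2 scale on both axes), control in blue and cKO in red, with open points for libraries with Xist over 100 CPM. The 6 cKO pools run from 50.2 CPM of Nr2f2 with 2.99 CPM of Cldn1 to 119 CPM with 13.8 CPM, and the control pools lie at 163 CPM of Nr2f2 or more.

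Cldn2, the claudin of leaky epithelia that forms cation and water pores, was higher in cKO testes at a low level. It lies on chromosome X from 139800808 to 139811386 (Entrez Gene 12738) and had between 12 and 278 reads per library. Control replicates 1 to 6 had 1.43, 2.24, 1.96, 1.55, 2.07 and 1.74 CPM, and cKO replicates 1 to 6 had 3.68, 2.12, 2.53, 3.38, 3.94 and 4.65 CPM. In 5 of 6 cKO pools the value was above every control, and only cKO replicate 2 lay within the control range. Means were 1.83 ± 0.310 and 3.38 ± 0.933 CPM (SD, n = 6 pools each), a log2 ratio of 0.89 (SE 0.20, edgeR adjusted p = 0.0141). No leave-one-out fit lost this call, whereas in the 8 libraries with low Xist the change was 0.70 and missed the threshold (edgeR adjusted p = 0.0618).

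Cldn6, a claudin of embryonic epithelia and pluripotent cells, was also higher in cKO testes, but from very few reads. Libraries had between 1 and 43 reads of it. Control pools ranged from 0.145 to 0.383 CPM (median 0.263) and cKO pools from 0.402 to 0.72 CPM (median 0.454), without overlap. Only the cKO pools brought Cldn6 past the filter on low counts. Its call and its lack of overlap are therefore not independent of the filter. The log2 ratio was 0.89 (SE 0.25, edgeR adjusted p = 0.0399). Leaving out 1 library at a time lost this call in 9 of 12 fits, with adjusted p up to 0.146 without cKO replicate 6, and DESeq2 did not make it (adjusted p = 0.118). In the 8 libraries with low Xist the change was 0.86 (edgeR adjusted p = 0.101).

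Cldn11, Cldn12 and Cldn5, the claudins with the highest levels per kilobase, had no change past the threshold. Cldn11, the claudin of Sertoli cells and myelin, had 18.0 to 24.8 CPM in control (median 22.2) and 18.4 to 23.7 CPM in cKO testes (median 20.02), a log2 ratio of -0.08 (SE 0.10, edgeR adjusted p = 0.649). Cldn12, a broadly expressed claudin, had 31.5 to 46.7 CPM in control (median 36.6) and 33.6 to 44.1 CPM in cKO testes (median 37.7), a log2 ratio of 0.07 (SE 0.10, edgeR adjusted p = 0.675). For both genes every cKO pool lay within the control range. Cldn5, the main claudin of endothelial cells, ranged from 8.57 to 16.3 CPM in control pools and from 9.23 to 14.7 CPM in cKO testes (log2 ratio -0.12, SE 0.16, edgeR adjusted p = 0.652). Cldn15, a pore-forming claudin of the intestine, had 2.92 to 6.22 and 3.17 to 5.29 CPM (log2 ratio -0.05, edgeR adjusted p = 0.888). Cldn7, Cldn13 and Cldn23 had at most 1.57 CPM in any library, with log2 ratios of -0.06, 0.58 and -0.29 (edgeR adjusted p = 0.914, 0.404 and 0.595). The SE of Cldn13 was 0.42 and that of Cldn23 0.32.

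Levels of different genes were compared per kilobase of the longest transcript. In control testes Cldn11 led the claudins with 11.7 ± 1.31 CPM per kb (SD, n = 6 pools), followed by Cldn12 with 9.90 ± 1.41, Cldn5 with 8.50 ± 1.96 and Cldn1 with 7.54 ± 2.67 CPM per kb. The ranges of neighbours in this order overlapped. In cKO testes Cldn1 had 1.92 ± 1.18 CPM per kb and stood below Cldn15 with 2.21 ± 0.436, within overlapping ranges. Cldn1 made up 17.6% ± 4.79 of the summed level of the 10 claudins in control pools and 5.18% ± 2.87 in cKO pools, with 13.3% as the lowest control and 10.8% as the highest cKO value. The share of Cldn2 went from 1.43% ± 0.233 to 3.07% ± 0.885. The ratio of Cldn1 to Cldn2 per kilobase ranged from 8.11 to 17.9 in control pools and from 0.711 to 6.12 in cKO pools. This ratio was formed after both changes had been seen and was not tested. The summed level of the 10 claudins was 42.1 ± 3.32 CPM per kb in control pools against 36.4 ± 2.16 CPM per kb in cKO pools.

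**Figure D4:**
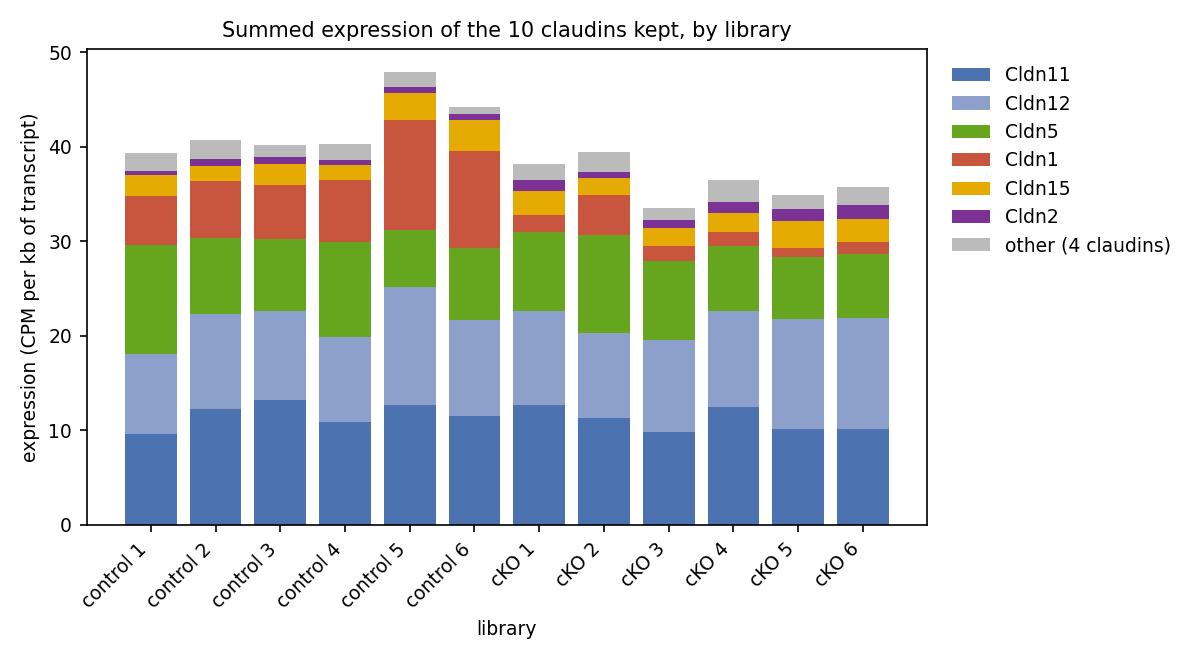
Stacked expression of the 10 claudins kept (CPM per kb of transcript, vertical axis from 0) in each of the 12 libraries. Cldn11, Cldn12 and Cldn5 make up most of every bar, and the Cldn1 segment narrows from a mean share of 17.6% in control to 5.18% in cKO libraries.

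F11r, which encodes the junctional adhesion molecule JAM-A, was the most abundant member to change. It lies on chromosome 1 from 171437561 to 171464593 (Entrez Gene 16456). Control replicates 1 to 6 had 111, 104, 104, 99.3, 85.5 and 91.2 CPM, and cKO replicates 1 to 6 had 141, 131, 130.1, 138, 119 and 117 CPM. Every cKO pool was above every control pool, with a gap from 111 to 117 CPM. Means were 99.1 ± 9.36 and 129 ± 9.90 CPM (SD, n = 6 pools each), a log2 ratio of 0.38 (SE 0.07, edgeR adjusted p = 0.00592). The call remained in all 12 leave-one-out fits, with adjusted p up to 0.0197, and the change was 0.51 in the 8 libraries with low Xist (edgeR adjusted p = 0.00489). Jam2, the paralog that endothelial and Sertoli cells express, had 57.5 to 91.2 CPM in control (median 79.0) and 60.1 to 82.4 CPM in cKO testes (median 78.2), a log2 ratio of -0.04 (SE 0.11, edgeR adjusted p = 0.849). Jam3, which binds Jam2, had 38.4 to 49.5 CPM in control (median 40.3) and 36.0 to 43.6 CPM in cKO testes (median 38.7). Its log2 ratio was -0.11 (SE 0.08, edgeR adjusted p = 0.401), and 3 of 6 cKO pools lay under every control.

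Among the scaffold proteins, Tjp3 (ZO-3) was higher in cKO testes, and its abundant paralog Tjp1 (ZO-1) was not called. Tjp3 lies on chromosome 10 from 81273188 to 81291581 on the minus strand (Entrez Gene 27375), and its interval overlaps that of Apba3 by 60 bases on the opposite strand, which counting by strand keeps apart. Its control values were 1.03, 1.34, 1.56, 1.46, 0.765 and 0.868 CPM in replicates 1 to 6, and its cKO values 2.38, 2.12, 1.49, 1.78, 2.71 and 2.14 CPM. Only cKO replicate 3 lay within the control range. The mean rose from 1.17 ± 0.329 to 2.10 ± 0.431 CPM (SD, n = 6 pools each), a log2 ratio of 0.77 (SE 0.20, edgeR adjusted p = 0.0331). Leaving out 1 library at a time lost this call in 7 of 12 fits (adjusted p up to 0.0736 without cKO replicate 1), and it was not made in the 8 libraries with low Xist (0.70, edgeR adjusted p = 0.0874).

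Tjp1 was the most abundant member per length in control testes, with 44.1 ± 4.51 CPM per kb, next to F11r with 39.4 ± 3.72. It had 262 to 358 CPM in control (median 311) and 327 to 374 CPM in cKO testes (median 345), a log2 ratio of 0.16 (SE 0.07, edgeR adjusted p = 0.185). Of its cKO pools, 2 of 6 were above every control, and without control replicate 1 it passed the threshold (0.20, edgeR adjusted p = 0.045). Cgn, which encodes cingulin, had 51.3 to 132 CPM in control (median 65.9) and 52.9 to 95.5 CPM in cKO testes (median 68.7). Its log2 ratio was -0.08 (SE 0.20, edgeR adjusted p = 0.834) and turned to 0.16 without control replicate 1, whereas with Xist as a covariate it was -0.26 (SE 0.09, edgeR adjusted p = 0.103). Its paralog Cgnl1 had 159 to 250.3 CPM in control (median 222) and 218 to 240.4 CPM in cKO testes (median 226), a log2 ratio of 0.07 (SE 0.09, edgeR adjusted p = 0.636). All 6 cKO pools of Cgn and of Cgnl1 lay within the control range.

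The proteins with a MARVEL domain had no called change. Ocln (occludin) had 5.09 to 9.41 CPM in control (median 6.44) and 4.21 to 6.94 CPM in cKO testes (median 6.28), a log2 ratio of -0.21 (SE 0.18, edgeR adjusted p = 0.489). Marveld2 (tricellulin), which seals the corners where 3 cells meet, had 6.81 to 11.9 CPM and 7.42 to 11.1 CPM, with a log2 ratio of 0.00 (SE 0.14). Ocln and Marveld2 are neighbours on chromosome 13, 43458 bases apart. Marveld1, the most abundant of this group, had 36.1 to 49.9 CPM in control (median 43.3) and 34.6 to 43.5 CPM in cKO testes (median 38.7). Its log2 ratio was -0.15 (SE 0.08, edgeR adjusted p = 0.256), with 1 cKO pool under every control.

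Between the 4 libraries with Xist over 100 CPM and the 8 others, 2 of 21 members did not overlap, a share close to the 8.22% of all genes. Cgn had 76.1 to 132 CPM in the 4 libraries with Xist over 100 CPM and 51.3 to 68.5 CPM in the 8 others, and it was highest in control replicate 1. Cldn11 had 18.0 to 18.9 CPM in those 4 libraries and 20.4 to 24.8 CPM in the others. Jam2 had 57.5 to 74.4 CPM in the 4 libraries and 73.0 to 91.2 CPM in the others. The 4 and 8 libraries are not groups of the study and were not tested against each other. Control replicates 5 and 6, the controls with the fewest counts, also stood apart from the other controls: they were the highest controls in Cldn1, Cldn12, Cldn15, Jam3 and Ocln, and the lowest in Cgn, Cgnl1, Cldn23, F11r, Marveld2, Tjp1 and Tjp3. Without them, 3 of 24 members tested were called, Cldn1, F11r and Cldn2, beside 914 of 15907 genes.

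**Figure D5:**
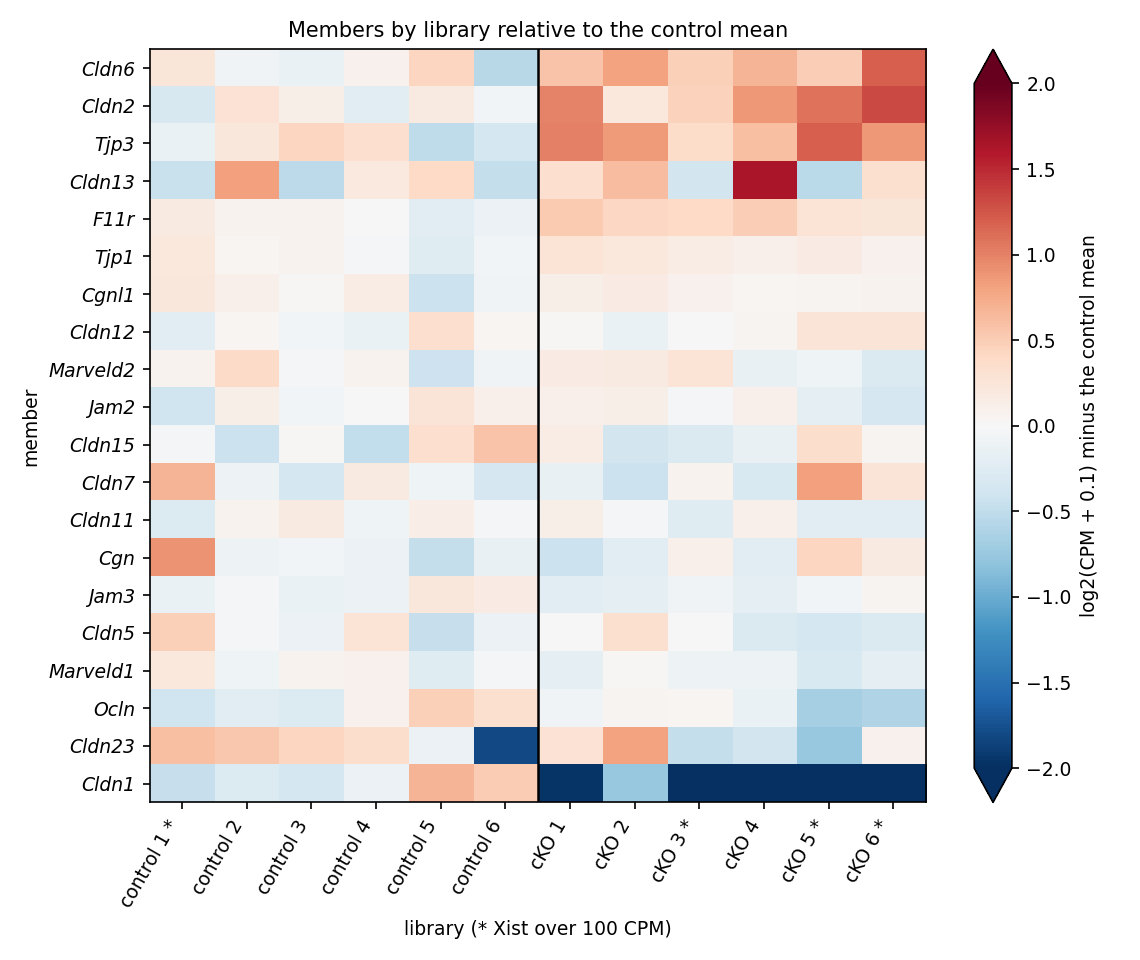
Log2(CPM + 0.1) of 20 of the members kept (rows) in each library (columns) minus the mean of the 6 control libraries, in blue for lower and red for higher, with the colour limited to 2 in either direction. Cldn1 is blue in all 6 cKO columns and palest in cKO replicate 2, and Cgn is darkest red in control replicate 1.

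The filter removed 14 members, which had at most 126 reads in all 12 libraries together. Cldn3 (119 reads), Cldn4 (126 reads) and Marveld3 (109 reads) reached 0.66, 0.676 and 0.543 CPM in their highest library. Cldn3 and Cldn4 lie in a cluster on chromosome 5 with Cldn13, the nearest members being 29592 and 39279 bases apart. Cldn10 had 45 reads, Cldn16 22, Cldn19 20, Cldn9 19, Cldn20 18, Cldn18 13, Cldn8 11, Cldn14 6 and Cldn22 2 reads. Cldn18 had at most 3 reads in a library, too few to compare groups. Cldn16 is the nearest member to Cldn1, 91295 bases away on the opposite strand, and 14 of its 22 reads were in cKO replicate 3. Cldn17 and Cldn24 had 0 reads, which allows up to 0.021 CPM in control pools and 0.0168 CPM in cKO testes over the libraries of a group (3 counts).

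Other genes of the junction were read from a list of 57 symbols, which stand for 56 genes because Pals1 is another name of Mpp5. All 56 were kept, 5 were lower and 3 higher in cKO testes, and their median log2 ratio was 0.06, beside 4.85% lower, 3.28% higher and a median of 0.00 over all genes tested. Of the 10 other membrane proteins, 3 were lower (4.85% of all genes) and 0 were higher. Clmp, an adhesion molecule related to the coxsackievirus receptor, fell from 54.8 ± 3.96 to 28.6 ± 7.31 CPM (SD, n = 6 pools each; log2 ratio -0.93, SE 0.14, edgeR adjusted p = 0.00101) without overlap. Cxadr, that receptor, and Pmp22, a relative of the claudins known from myelin, fell by 0.39 and 0.56 on the log2 scale (edgeR adjusted p = 0.0306 and 0.00822).

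Of 14 adherens junction genes, 3 were higher (3.28% of all genes) and 0 were lower. Cdh2 (N-cadherin) rose from 49.1 ± 10.5 to 91.8 ± 4.48 CPM (SD, n = 6 pools each; log2 ratio 0.89, SE 0.11, edgeR adjusted p = 0.000383), without overlap. Jup (plakoglobin) and Cdh1 (E-cadherin) had log2 ratios of 0.49 and 0.50 (edgeR adjusted p = 0.0075 and 0.0419). Of 25 scaffold and polarity genes, Amotl2, an angiomotin, was the only call, lower by -0.31 (edgeR adjusted p = 0.0122). Of 7 regulators, the kinase gene Wnk4 was the only call (-0.54, edgeR adjusted p = 0.00323). Ctnnb1 (beta-catenin), the most abundant gene of the list in CPM, had a log2 ratio of -0.09 (edgeR adjusted p = 0.246). In the 8 libraries with low Xist, where 7.08% of all genes were called, the changes of Clmp (-0.75), Cxadr (-0.40), Pmp22 (-0.52), Cdh2 (1.02), Jup (0.64), Cdh1 (0.67) and Wnk4 (-0.49) were called too, and that of Amotl2 was not (-0.22, edgeR adjusted p = 0.118). The polarity gene Crb2 was called in these 8 libraries (-0.66, edgeR adjusted p = 0.0371) and not in the 12.

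Markers of cell types that build such junctions were read beside these changes. Of all genes tested, 4.85% were lower and 3.28% higher in the fit of 12 libraries. Of 7 Sertoli cell markers, 0 were called at an adjusted p under 0.05 by edgeR, and 1 (Cst9) had an unadjusted p under 0.05. Their summed level was 827 to 1269 CPM in control pools and 730.5 to 1245 CPM in cKO pools. Of the 10 endothelial markers, 1 was lower (454 to 693 and 452 to 568 CPM). Of 7 mesonephric epithelium markers kept, 2 (Lhx1 and Pax8) were higher, with summed levels of 41.2 to 62.2 CPM in control pools and 52.3 to 77.0 CPM in cKO pools. Most of this sum came from Epcam, with means of 30.4 CPM in control and 39.5 CPM in cKO pools, which was not called. Of 5 coelomic epithelium markers kept, 1 was higher (89.5 to 160 and 98.4 to 194 CPM). The 7 germ cell markers had 0 calls by edgeR and 0 with an unadjusted p under 0.05 (1187 to 2130 and 1614 to 1927 CPM), and 3 of 10 macrophage markers were higher (53.4 to 83.4 and 79.6 to 97.3 CPM). Of 5 fetal Leydig cell markers 4 were lower (1561 to 2910.4 and 841 to 1745 CPM), as was Tcf21 of 3 interstitial markers (686 to 900 and 455 to 744 CPM). Of the 6 ovarian markers, Wnt4 was lower in the fit of 12 libraries. In the 8 libraries with low Xist, Wnt4 was again lower (-0.84, edgeR adjusted p = 0.00686) and 3 were higher, Foxl2 (1.45, edgeR adjusted p = 0.00958), Fst (0.62, edgeR adjusted p = 0.0216) and Bmp2 (0.67, edgeR adjusted p = 0.0379). The calls of Lhx1 and Pax8, of the coelomic marker Msln, the endothelial marker Tek and the macrophage marker C1qb were not made in the 8 libraries. Lastly, the 4 Schwann cell and neural crest markers had 0 calls by edgeR and 1 (Sox10) with an unadjusted p under 0.05 (23.2 to 30.7 and 24.2 to 30.7 CPM). The part of these cell types in the changes of Cldn1, Cldn2, Cldn6, F11r and Tjp3 was not tested.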

How the data were processed

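Strand-specific libraries were made from polyadenylated RNA of pools of 3 testes. Read pairs were trimmed by the authors (Trim Galore 0.6.7), aligned to mm10 (STAR 2.5) and counted by strand on RefSeq Curated gene models (featureCounts), and the deposited values are raw counts per gene for 24470 genes in 12 libraries, without normalization. The main analysis used edgeR 4.0.16 under R 4.3.3, with TMM scaling, filterByExpr (minimum count 10, minimum total 15), glmQLFit and glmQLFTest without covariates, and Benjamini-Hochberg adjustment over 15572 genes. The standard error is the log2 ratio divided by the square root of F. The authors used DESeq2, which was run here as an alternative (1.42.0), as was limma-voom (3.58.1). The tests were tested on simulated data.

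No 2 libraries of a group agreed within sampling noise (chi-square per gene at least 2.46). The labels do not say whether pools came from separate litters, so p-values measure the spread between pools. Replicate numbers did not pair the libraries. Transcript lengths were taken from GENCODE M21 (longest transcript paired with a RefSeq entry, 35 of 35 members), and promoters from RefSeq. Floors cover counting error only. Values in every library, or their range and median, are given for members that were called, did not overlap or had a mean of at least 20 CPM, and partner genes are named where called or abundant. The members, the gene lists and the tests were chosen with earlier results of these data known. For 1 of the 21 members kept, which was not called, values are not reported here, and it is included in the counts.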

Additional observations from a re-analysis of the deposited data

Results flagged for a closer look

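Of the 42 sets of 6 values tested (21 members in 2 groups), 3 had a pool far from the rest by Dixon's gap ratio (the gap to the nearest value over the whole range, above the critical value for 6 values). Chance gives about 1 such set in 20. Cgn had 132 CPM in control replicate 1, where the next highest control had 68.5 CPM (gap ratio 0.787). This library is the control with 891 CPM of Xist. Cldn1 had 13.8 CPM in cKO replicate 2, where the next highest cKO pool had 5.92 CPM (gap ratio 0.729), and this pool had the most Nr2f2 RNA of the cKO pools (119 CPM). Cldn13 had 1.57 CPM in cKO replicate 4, where the next highest cKO pool had 0.727 CPM (gap ratio 0.649), from 53 reads.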

How the results depend on the processing

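Across 22 alternatives, Cldn1 (log2 fold change -2.32 to -1.61) and F11r (0.32 to 0.51) kept their direction and their call. Cldn2 (0.70 to 0.99) lost its call in 2, the replicate block and the 8 libraries with low Xist, Tjp3 in 10 and Cldn6 in 15 of 21. The number of members called was 5, against 2 in the 8 libraries with Xist under 100 CPM, 3 without control replicates 5 and 6 together (an alternative chosen after seeing the data), and 3 to 6 with 1 library left out at a time; it was 3 without control replicate 2 or 6 or without cKO replicate 1, 2, 5 or 6. The number of all genes called was 1266 of 15572, against 1919 of 21074 with DESeq2, which was run without the filter on low counts. It was 914 of 15907 without control replicates 5 and 6 together. When each library was left out, it was 816 (without cKO replicate 4) to 3106 (without control replicate 1). The number of partner genes called was 8 of 56, and 6 to 12 in the alternatives. The 12 came without control replicate 1, where 3106 of 15579 genes were called. Tjp1 made up 18.1% of the summed level of the members per kilobase in control testes and 29.7% without length.

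With the replicate number as a block, 2 of 21 members were called, Cldn1 and F11r, and calls over all genes fell from 1266 to 931 of 15572. Only 2 of 6 pairs with the same number had deviations correlated above 0.1, and 0 of 6 controls correlated best with their own number, so the samples share only a number.

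Members that were not called changed sign as follows, with adjusted p of 0.401 or more in each case. In the 8 libraries with low Xist, log2 ratios were 0.0084 for Cldn11, -0.063 for Cldn12, 0.089 for Cldn5 and 0.029 for Jam2. With Xist as a covariate they were 0.0082 for Cldn11 and 0.073 for Jam2, with limma-voom 0.0083 for Cldn15 and -0.038 for Marveld2, and with DESeq2 -0.0035 for Marveld2. Without control replicates 5 and 6 they were -0.030 for Cgnl1, 0.18 for Cldn15, 0.056 for Jam2, -0.096 for Marveld2 and 0.0076 for Ocln. Leaving out 1 library gave -0.17 to 0.16 for Cgn, -0.14 to 0.058 for Cldn15, -0.17 to 0.18 for Cldn7, -0.11 to 0.023 for Jam2 and -0.064 to 0.089 for Marveld2. The causes were not tested. Depth limits Cldn6, Cldn7, Cldn13 and Cldn23, which had libraries with 1 to 3 reads.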
